A study of Arabidopsis thaliana with 24 samples.

Results

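The genes described here are 10 genes of root triterpene synthesis in Arabidopsis thaliana, out of 33602 genes counted. They form 4 groups: the thalianol cluster (AT5G47980, AT5G47990, AT5G48000 and AT5G48010), the marneral cluster (AT5G42590 and AT5G42600), the arabidiol and baruol cluster (AT4G15340, AT4G15370 and AT4G15390) and PEN3 (AT5G36150). They were chosen by identifier, with earlier comparisons of these same libraries known, and the rule does not state the values behind each choice. Their fold changes between genotypes and between root layers are therefore given as a description, with no p. All 10 passed the filter on low counts, which left 23219 genes in the tests. The libraries hold RNA that came down with ribosomes from roots of plants that make a tagged ribosomal protein L18 (HF-RPL18). In the first line of plants the tagged protein is driven by the viral 35S promoter. In 5 others it is driven by the promoter of ACR4, SHR, SCR, CO2 or WER, which the labels assign to columella, stele, endodermis, cortex and epidermis. Each of these 6 lines was sampled in the hyl1 mutant and in Col0, the wild type, with 2 libraries per group and 24 in all. Mutant and wild type plants alike carry the transgene, and all were 6 days old, grown at 22 °C, with material of about 20 plates pooled per library. The hyl1 allele and the number of independent transgenic lines were not found in the labels. Nor do these state whether the 2 libraries of a group were separate harvests, so the p-values cover the spread between libraries, part of which may be technical.

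Plant triterpenes are made from 2,3-oxidosqualene, the last product that triterpenes and sterols share. An oxidosqualene cyclase folds it into a ring skeleton, and cytochromes P450 and acyltransferases then decorate that skeleton. In Arabidopsis the genes of several such pathways lie side by side on the chromosome, are active mainly in roots and yield compounds that shape the bacteria around the root. The thalianol and marneral clusters are known to carry the repressive histone mark H3K27me3 in tissues where they are silent. HYL1 binds double-stranded RNA and helps DCL1 to cut microRNAs from their precursors.

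Total counts ran from 2868803 to 13575556 per library. HYL1 (AT1G09700) itself had 1 to 43 counts in hyl1 libraries, at 0.109 to 9.95 normalised CPM (counts scaled to a common library size), and 34 to 145 counts in Col0 libraries, at 5.34 to 15.4 CPM. Within each of the 6 lines both hyl1 libraries lay below both Col0 libraries, least clearly in SHR, at 8.46 and 9.95 CPM in hyl1, against 15.4 and 12.7 CPM in Col0. The mean log2 fold change was −1.67 (SE 0.34, edgeR adjusted p = 0.00185). Libraries of a group correlated across genes with r of 0.926 to 0.975, except the hyl1 WER pair at 0.752. The 2 Col0 SCR libraries also stood apart, since the summed endodermis markers were 2119 CPM in replicate 1 and 492 CPM in replicate 2. Marker sums followed the labels for the other Col0 lines except CO2: the 2 cortex markers summed to only 2.77 to 4.19 CPM there, so its label could not be checked. The root cap markers, however, summed to 709 to 736 CPM in Col0 ACR4 and also to 408 to 501 CPM in Col0 WER, against 28.6 to 159 CPM in the SHR, SCR and CO2 lines of Col0. In these pull-downs, fewer cells of a type and less RNA per cell cannot be told apart.

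Across the mean of the 6 lines, the 10 genes did not all differ in 1 direction. In hyl1 the marneral synthase gene MRN1, the arabidiol synthase gene PEN1 and the acyltransferase gene AT4G15390 were higher than in Col0, while PEN3 and 3 of the 4 thalianol genes were lower. The edgeR quasi-likelihood test with an adjusted p under 0.05 called 3 of 10 higher, against 7.84% of all genes tested, and 4 of 10 lower, against 12% of all genes. Nothing is read from these counts, since the genes were chosen with this contrast known. The largest changes were a 4.96-fold higher MRN1 (log2 fold change 2.31, SE 0.36) and a 6.29-fold lower PEN3 (log2 fold change −2.65, SE 0.32). In at least 5 of 6 lines both hyl1 libraries lay above both Col0 libraries for MRN1 and AT4G15390, against 1.61% of all genes, and below them for CYP708A2 and PEN3, against 1.66% of all genes. For 4 of the 10, hyl1 lay above Col0 in at least 1 line and below it in another, against 49.6% of all genes. The median over the 10 genes was −0.28 on the log2 scale, beside −0.07 over all genes tested.

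The mean was computed again without the lines whose libraries stood apart. Without the 4 WER libraries 6 of the 10 genes were called, and without the WER and SCR libraries 7 were called. The share of all genes called in these fits was not computed, so nothing is read from these counts. PEN1 depended on the WER line, since its log2 fold change was 0.18 without WER and 0.06 without WER and SCR. For CYP71A16 the value was 0.30 without WER and 0.43 without both, and for BARS1 −0.28 and 0.08. MRN1 stood at 2.01 and 2.44, AT4G15390 at 1.21 and 1.06, and PEN3 at −2.47 and −2.30. AT5G47980 stood at −1.05 without WER and −0.89 without both, and at −0.87 without Col0 SCR replicate 2 alone. In the 35S, SHR and CO2 lines alone, THAS1, CYP705A5, AT5G47980 and CYP708A2 lay at 0.13, −0.12, −0.32 and −0.52, while MRN1 lay at 2.71 and PEN3 at −2.05.

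Within single lines the calls fell mainly in the ACR4 and WER lines. The calls over all 23219 genes tested did so too, with 3415 in ACR4 and 9069 in WER. As for the mean, nothing is read from these calls, since the 10 genes were chosen with earlier comparisons known. In the ACR4 line AT4G15390 was called higher (background 6.29%) and AT5G47980, CYP705A5 and PEN3 were called lower (background 8.42%). In the WER line MRN1, PEN1 and AT4G15390 were called higher (background 15.8%), and AT5G47980, CYP705A5, CYP708A2, CYP71A16 and PEN3 were called lower (background 23.3%). In the other 4 lines the only call was a higher AT4G15390. It was made in the 35S line (0.0904% of all genes called higher and 0.00861% lower), the SCR line (0.53% and 1.37%) and the CO2 line (0.0861% and 0.0603%). For SHR plants none of the 10 was called, with 0.0775% of all genes called higher and 0.00431% lower. Few genes of any kind were thus called in the 35S, SHR and CO2 lines. The call counts for single lines moved when single libraries were left out. For those fits the share of all genes called was not computed, so the moves are not read as particular to the 10 genes. Without either hyl1 ACR4 library 1 of the 10 was called in that line, and without Col0 SCR replicate 1 the SCR line had 6 calls in place of 1. The call in 35S was kept in only 10 of the 24 fits that each left out 1 library, and that in CO2 in 20 of 24. The CO2 call ended without any of the 4 CO2 libraries, and the 35S call also without many libraries of other lines.

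**Figure D1:**
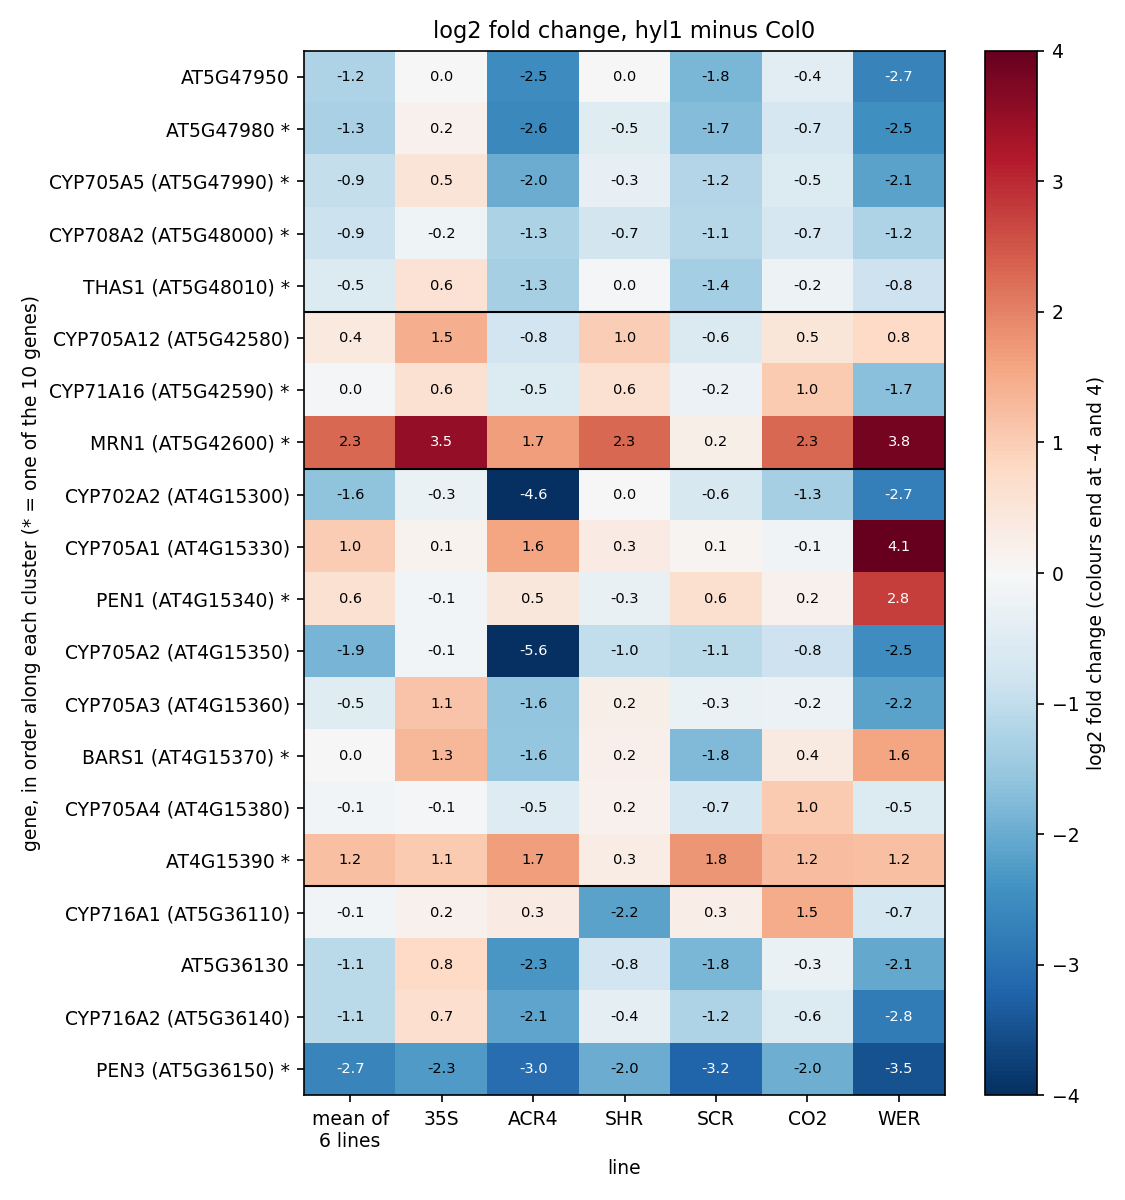
Log2 fold change of hyl1 minus Col0 for the 20 cluster genes that were tested, in order along each cluster, for the 6 lines averaged and for each line. Asterisks mark the 10 genes described, red is higher and blue is lower in hyl1, and black lines separate the clusters. MRN1 and AT4G15390 are red in every column, PEN3 is blue in every column, and AT5G47950, AT5G47980 and CYP705A5 are bluest in the ACR4 and WER columns.

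The thalianol cluster makes thalianol and its oxidised, acylated derivatives. THAS1 (AT5G48010), thalianol synthase, folds oxidosqualene. CYP708A2 (AT5G48000) hydroxylates thalianol, CYP705A5 (AT5G47990) acts as a desaturase on the diol, and AT5G47980 belongs to the BAHD acyltransferases. In Col0 all 4 transcripts were most abundant in the ACR4 line and second in the WER line, and in hyl1 this excess over the other lines was smaller.

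THAS1 had 338 and 348 CPM in hyl1 ACR4, against 956 and 779 CPM in Col0 ACR4. It had 199.6 and 378 CPM in hyl1 WER, against 509.9 and 521 CPM in Col0 WER. In the 35S line it had 242 and 203 CPM in hyl1, against 141 and 154 CPM in Col0. The genotypes thus did not overlap in these lines, with hyl1 lower in ACR4 and WER but higher in 35S. Values in SHR were 267 and 302 CPM in hyl1, against 253 and 336 CPM in Col0, and in CO2 225.7 and 242 CPM in hyl1, against 326 and 210.2 CPM in Col0. In SCR it had 123 and 102 CPM in hyl1, against 90.4 and 493 CPM in Col0. In these 3 lines the genotypes overlapped. Its log2 fold change was −0.53 (SE 0.19) as the mean of the lines, and it was not called there or in any line.

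AT5G47980, the acyltransferase gene, differed most between the genotypes among these 4. It had 31.6 and 32.2 CPM in hyl1 ACR4, against 196 and 183 CPM in Col0 ACR4, a 5.93-fold lower level. It had 23.8 and 30.2 CPM in hyl1 WER, against 158 and 139 CPM in Col0 WER. All 4 hyl1 libraries of these 2 lines lay at the level of the 35S line, where hyl1 had 29.4 and 31.7 CPM and Col0 had 23.9 and 30.7 CPM. Values in SHR were 11.7 and 19.6 CPM in hyl1, against 22.1 and 21.8 CPM in Col0, and in CO2 18.3 and 20.6 CPM in hyl1, against 33.3 and 28.0 CPM in Col0. In SCR it had 15.4 and 17.6 CPM in hyl1, between the 2 Col0 libraries at 9.77 and 101 CPM. The genotypes overlapped in 35S and SCR, and hyl1 was lower in the other 4 lines. Over all 12 hyl1 libraries it ran from 11.7 to 32.2 CPM, while over the 12 Col0 libraries it ran from 9.77 to 196 CPM.

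CYP705A5 had 276 and 272 CPM in hyl1 ACR4, against 1089 and 1061 CPM in Col0 ACR4. In WER it had 181 and 196 CPM in hyl1, against 928 and 720.3 CPM in Col0. These were the 2 lines where it was called lower, at −1.97 (SE 0.49) and −2.13 (SE 0.50) on the log2 scale. In 35S the order was the other way, with 213 and 194 CPM in hyl1, against 145 and 140.1 CPM in Col0. Smaller gaps with hyl1 lower were seen in SHR, at 108 and 125 CPM in hyl1, against 155 and 141 CPM in Col0, and in CO2, at 131 and 113 CPM in hyl1, against 213 and 145 CPM in Col0. In SCR the genotypes overlapped, at 118 and 99.9 CPM in hyl1 and 62.2 and 430.5 CPM in Col0.

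CYP708A2 had 207 and 215 CPM in hyl1 ACR4, against 514 and 496 CPM in Col0 ACR4, and 66.2 and 181 CPM in hyl1 WER, against 296 and 290.1 CPM in Col0 WER. It was lower in hyl1 without overlap in 5 of 6 lines, all but SCR. Its 35S values were close, at 144 and 119 CPM in hyl1 and 152 and 147 CPM in Col0. In SHR it had 60.0 and 72.8 CPM in hyl1, against 104 and 116 CPM in Col0, and in CO2 109 and 94.8 CPM in hyl1, against 189.6 and 135 CPM in Col0. The SCR values were 101 and 91.8 CPM in hyl1 and 81.3 and 344 CPM in Col0. Its called contrasts were the mean of the lines (log2 fold change −0.87, SE 0.19) and WER (−1.25, SE 0.45).

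**Figure D2:**
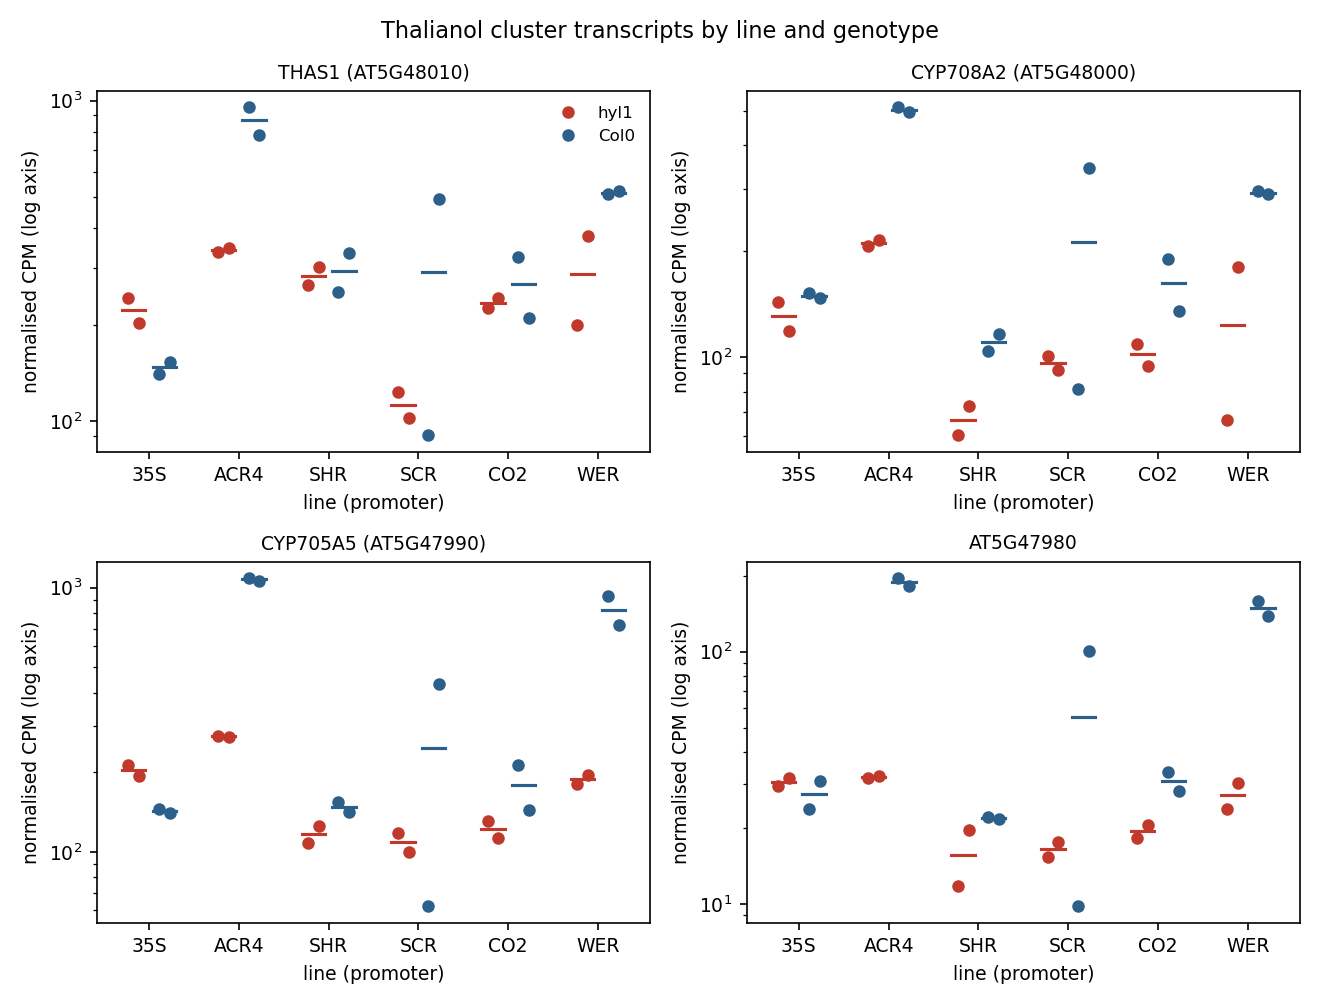
Normalised CPM (log axis) of the 4 thalianol genes in each of the 24 libraries, hyl1 in red and Col0 in blue, with a bar at the mean of the 2 libraries. The Col0 means of the ACR4 and WER lines stand above the others in all 4 panels, and the 2 Col0 SCR points lie far apart.

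The 2 Col0 SCR libraries differed as widely as the layers did. Replicate 2, with the low endodermis sum, had 493 CPM of THAS1 and 101 CPM of AT5G47980, and replicate 1 had 90.4 and 9.77 CPM. Its root cap markers summed to 159 CPM, against 28.6 CPM in replicate 1, and the part of this in the thalianol values was not tested.

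Between Col0 layers, each layer line was set against the mean of the 4 other layer lines. Calls of the 10 genes are a description here as well, since earlier comparisons were known when they were chosen. ACR4 had 5 of the 10 genes called higher (background 8.58%) and none lower (3.76%): the 4 thalianol genes, by 1.39 to 1.99 on the log2 scale, and CYP71A16. WER had 5 called higher (background 14.9%) and PEN1 called lower (11.8%). The 5 were AT5G47980, CYP705A5, CYP71A16, BARS1 and PEN3. SHR had none called higher (background 9.6%) and AT5G47980, CYP705A5 and CYP708A2 called lower (9.52%). SCR had PEN1 called higher (background 5.17%) and none lower (1.34%), and CO2 had none called in either direction (5.66% and 4.44%). These counts moved when single libraries were left out. The share of all genes called in those fits was not computed, so nothing is read from the moves. ACR4 had 2 calls without its Col0 replicate 1 and 3 without its replicate 2, WER had 2 without its Col0 replicate 1, and SHR had none without either of its own. SCR had 7 calls without its Col0 replicate 2 and none without its replicate 1. CO2 had 4 without Col0 SCR replicate 1, 2 without Col0 SCR replicate 2, and 3 and 2 without hyl1 WER replicates 1 and 2. SHR had 5 without Col0 SCR replicate 1. The SHR and WER libraries come from separate runs of library numbers, so these layers cannot be told apart from those runs.

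In Col0 the order of the mean levels was the same at its top for each thalianol gene. THAS1 stood at 867 ± 125 CPM in ACR4 and 515 ± 7.76 CPM in WER, and at 294 ± 58.8, 292 ± 285 and 268 ± 81.7 CPM in SHR, SCR and CO2 (SD, n = 2 each). The last 3 did not differ beyond their spread. In hyl1 the top was ACR4 again, at 343 ± 7.20 CPM. WER followed at 289 ± 126 CPM, SHR at 284 ± 25.0 CPM, CO2 at 233.999 ± 11.8 CPM and SCR, the lowest layer, at 113 ± 14.9 CPM. WER did not differ from ACR4, SHR or CO2 beyond the spread of its libraries, while both SHR libraries lay above both CO2 libraries. AT5G47980 in hyl1 ACR4, at 31.9 ± 0.43 CPM, exceeded hyl1 35S, at 30.5 ± 1.64 CPM, by less than the spread of the 35S libraries.

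Markers of other cells differed between the genotypes too, most of all in the ACR4 and WER lines. In the ACR4 line 5 of 7 root cap markers passed the test as lower in hyl1, and ACR4 (AT3G59420) itself, whose promoter drives the transgene, as higher. Of all genes, 8.42% passed as lower there and 6.29% as higher. With ACR4 included, all 7 summed to 1106 to 1217 CPM in hyl1 ACR4, against 709 to 736 CPM in Col0 ACR4. The other 6 root cap markers, without ACR4, summed to 52.6 to 65.8 CPM in hyl1 ACR4, against 553 to 555 CPM in Col0 ACR4. In the WER line they summed to 108 to 113 CPM in hyl1, against 399 to 492 CPM in Col0, and FEZ was at 0 in 1 hyl1 library. Epidermis markers summed to 82.2 to 86.4 CPM in hyl1 ACR4, against 147 to 155 CPM in Col0 ACR4, and to 100.5 to 149 CPM in hyl1 WER, against 204 to 224.5 CPM in Col0 WER. Stele markers ran the other way: 6 of 11 were higher in hyl1 ACR4 and 7 of 11 in hyl1 WER. The shares of all genes called higher were 6.29% in ACR4 and 15.8% in WER. These markers summed to 394 to 675 CPM in hyl1 WER, against 149 to 155 CPM in Col0 WER. Endodermis markers were higher for 5 of 9 in hyl1 ACR4 and for 6 of 9 in hyl1 WER, beside the same shares of all genes. They summed to 166 to 194 CPM in hyl1 ACR4, against 40.8 to 46.2 CPM in Col0 ACR4. The endodermis marker CASP5 went the other way as the mean of the lines (log2 fold change −2.06, SE 0.42, edgeR adjusted p = 0.00199). CASP5 was at 0 in 1 hyl1 WER library, and CASP2 in 1 hyl1 and 1 Col0 WER library. At 0 in both libraries of a group were the cortex marker AT1G09750 in hyl1 WER and the stele marker HP6 in Col0 WER. In the CO2 line no marker was called, but the sums did not overlap for 3 lists. Endodermis markers summed to 333 to 400 CPM in hyl1 CO2, against 141 to 163 CPM in Col0 CO2, epidermis markers to 51.6 to 52.2 CPM in hyl1 CO2, against 78.1 to 94.2 CPM in Col0 CO2, and stele markers to 288 to 291 CPM in hyl1 CO2, against 440.1 to 440.4 CPM in Col0 CO2. In SCR 2 of 11 stele markers were called higher in hyl1, beside 0.53% of all genes. In the 35S line none of these markers was called, and the root cap list summed to 237.7 to 265 CPM in hyl1 and 234.5 to 326 CPM in Col0. The share of the 10 transcripts most over-represented in layer lines against the 35S line differed as well, at 33.4% to 37.0% of counts in hyl1 ACR4, against 8.27% to 9.14% in Col0 ACR4. In WER it was 24.7% to 30.5% in hyl1, against 3.57% to 4.03% in Col0. The part of these differences in the levels of the 10 genes and of the other cluster genes was not tested, nor was the part of the CO2 differences in the MRN1, CYP71A16 and LAS1 levels of that line.

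The gene lists outside the 10, cell markers included, were also chosen with earlier results of these data known. Adjusted p-values of listed genes carry that limit throughout. AT5G47950, a further BAHD acyltransferase gene at the other end of the thalianol cluster, is outside the 10 and was tested. It was lower in hyl1 as the mean of the lines (log2 fold change −1.25, SE 0.25, edgeR adjusted p = 0.00161). It had 26.6 and 21.5 CPM in hyl1 ACR4, against 142 and 136 CPM in Col0 ACR4, and 23.1 and 13.0 CPM in hyl1 WER, against 106 and 122 CPM in Col0 WER. Both falls passed the test, at −2.53 (adjusted p = 0.00783) and −2.66 (adjusted p = 0.00224). In 35S its values were 23.7 and 22.3 CPM in hyl1 and 22.9 and 23.3 CPM in Col0. The test of a difference between lines gave an adjusted p of 0.0547, which misses the threshold. Over 35S, SHR and CO2 alone the mean was −0.14 and did not pass (adjusted p = 0.839).

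Genes of other function inside and around the thalianol cluster were tested too. RABA4C (AT5G47960), a Rab GTPase gene, and AT5G47970 lie between the acyltransferase genes. Both were lower in hyl1, RABA4C by −0.80 (SE 0.23, adjusted p = 0.0200) and AT5G47970 by −0.75 (SE 0.19, adjusted p = 0.0103). In WER they stood at −2.27 and −3.20. In ACR4, at −1.05 and −0.84, neither passed (edgeR adjusted p = 0.251 and 0.277). Just outside, AT5G47940 was lower by −0.53 (adjusted p = 0.00595) and passed in both ACR4 and WER. The other 5 neighbours tested did not pass as the mean of the lines. In WER, however, AT5G47930 passed as lower (−1.44, edgeR adjusted p = 1.44e-04) and GFA2 (AT5G48030) as higher (0.90, edgeR adjusted p = 0.0377). As the mean, 3 of 8 were lower and 0 higher, beside 12% and 7.84% of all genes. Of the neighbours of the other clusters, AT5G42620 beside the marneral cluster was higher (0.47, adjusted p = 0.0107). UGT71B5 (AT4G15280) beside the arabidiol and baruol cluster was lower (−1.14, adjusted p = 0.0373). These were 1 of 3 and 1 of 6 neighbours tested, and neither of the 2 tested beside PEN3 passed as the mean. Both calls passed in WER but not in ACR4 (edgeR adjusted p = 0.132 and 0.163). Of those not called as the mean, AT5G42570, AT4G15270 and ATCSLB05 (AT4G15290) passed as lower in WER, and AT5G36160 beside PEN3 as higher. ATCSLB05 also passed as lower in ACR4. In WER 23.3% of all genes were called lower and 15.8% higher.

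The marneral cluster differed in its members. MRN1 (AT5G42600) makes marneral from oxidosqualene, and CYP71A16 (AT5G42590) oxidises marneral. MRN1 was higher in hyl1, and CYP71A16 differed in direction from line to line.

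MRN1 had 75.5 and 54.4 CPM in hyl1 35S, against 3.61 and 7.28 CPM in Col0 35S, which is 11.5-fold. In ACR4 it had 203 and 216 CPM in hyl1, against 57.5 and 74.5 CPM in Col0. Values in SHR were 180.4 and 318 CPM in hyl1, against 50.7 and 50.3 CPM in Col0. None of these pairs of groups overlapped. In CO2 it had 105 and 110.1 CPM in hyl1, against 38.8 and 4.79 CPM in Col0, and in WER 97.0 and 506 CPM in hyl1, against 32.1 and 10.5 CPM in Col0. In SCR it had 38.3 and 26.0 CPM in hyl1, within the Col0 values of 4.89 and 49.5 CPM. hyl1 was thus higher without overlap in 5 of 6 lines. The 2 libraries of a group lay far apart for MRN1 in hyl1 WER, Col0 WER, Col0 SCR and Col0 CO2. Only the WER contrast was called (log2 fold change 3.83, SE 0.93), with both of its groups among these. In 35S its log2 fold change of 3.53 (SE 0.95) was not called.

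CYP71A16 had 45.7 and 48.5 CPM in hyl1 ACR4, against 75.5 and 62.1 CPM in Col0 ACR4. In WER it had 22.7 and 17.7 CPM in hyl1, against 60.4 and 68.6 CPM in Col0, its only called contrast (log2 fold change −1.67, SE 0.41). It was lower in hyl1 in these lines, where its Col0 level was highest. In 35S it had 23.0 and 21.0 CPM in hyl1, against 16.8 and 12.3 CPM in Col0. In SHR it had 29.5 and 31.3 CPM in hyl1, against 21.5 and 18.1 CPM in Col0, and in CO2 33.0 and 40.2 CPM in hyl1, against 19.4 and 16.4 CPM in Col0. hyl1 was higher without overlap in these 3 lines. In SCR its hyl1 values of 14.6 and 17.2 CPM lay within the Col0 values of 6.96 and 30.8 CPM. The mean over the lines was −0.04 (SE 0.17).

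The ratio of MRN1 counts to CYP71A16 counts within a library does not depend on scaling. It ran from 1.51 to 28.6 in hyl1 libraries with a median of 3.78, and from 0.153 to 2.77 in Col0 libraries with a median of 0.732. Within each of the 6 lines except SCR every hyl1 library had a higher ratio than both Col0 libraries. In SCR the ratios were 2.61 and 1.51 in hyl1 and 0.702 and 1.61 in Col0. The P450 gene at the cluster's end, CYP705A12 (AT5G42580), was tested and not called as the mean of the lines (log2 fold change 0.40, SE 0.28, adjusted p = 0.361) or in any line. Its values were 19.6 and 19.7 CPM in hyl1 35S, against 9.58 and 4.93 CPM in Col0 35S, and 30.2 and 33.0 CPM in hyl1 ACR4, against 47.1 and 60.6 CPM in Col0 ACR4. In Col0 it was higher in ACR4 than in the other layers (2.06, adjusted p = 0.0068), as CYP71A16 was.

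**Figure D3:**
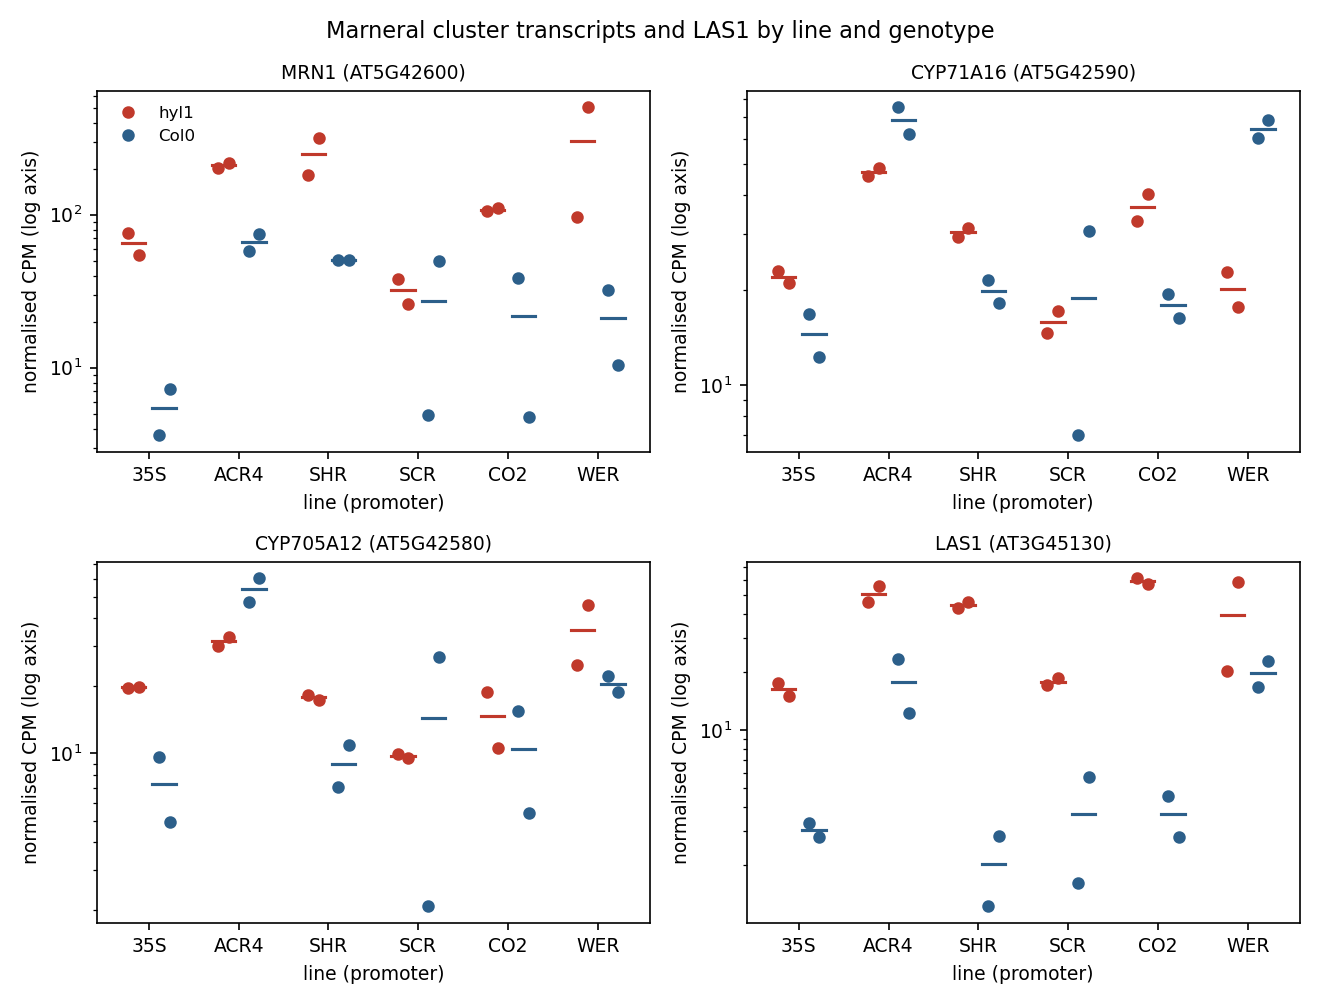
Normalised CPM (log axis) in each library, hyl1 in red and Col0 in blue, for MRN1, CYP71A16 and CYP705A12 of the marneral cluster and for LAS1, with bars at group means. MRN1 and LAS1 are higher in hyl1 in most lines, while CYP71A16 is lower in hyl1 in ACR4 and WER and higher in 35S, SHR and CO2.

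The arabidiol and baruol cluster holds 2 cyclase genes among P450 genes of the CYP705A and CYP702A families. PEN1 (AT4G15340) makes arabidiol, which CYP705A1 (AT4G15330) cleaves to release a volatile homoterpene. BARS1 (AT4G15370) makes baruol, and AT4G15390 encodes an acyltransferase of the BAHD type whose substrate is not assumed here. The 3 members had 3 different patterns: AT4G15390 was higher in hyl1 in every line, PEN1 mainly in WER, and BARS1 in no fixed direction.

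AT4G15390 had 133 and 114 CPM in hyl1 35S, against 57.6 and 60.8 CPM in Col0 35S. It had 216 and 232.7 CPM in hyl1 ACR4, against 70.4 and 70.0 CPM in Col0 ACR4, and 317 and 320.2 CPM in hyl1 SCR, against 108 and 78.7 CPM in Col0 SCR. Libraries of a group were close here, least so in the 2 groups that stood apart. The SD was 29.0 CPM in hyl1 WER and 21.0 CPM in Col0 SCR (n = 2 each). It had 209 and 222 CPM in hyl1 CO2, against 83.0 and 101 CPM in Col0 CO2, and 242 and 201 CPM in hyl1 WER, against 104 and 88.8 CPM in Col0 WER. The smallest gap was in SHR, with 92.5 and 92.1 CPM in hyl1, against 81.1 and 70.8 CPM in Col0. The genotypes did not overlap in 6 of 6 lines. The mean log2 fold change was 1.20 (SE 0.08), or 2.30-fold, with single lines at 0.28 in SHR and 1.06 to 1.77 in the other 5. Its SE was the smallest of the 10 genes. In Col0 it varied little between lines, with group means of 59.2 to 96.5 CPM, and none of the 5 layer contrasts called it.

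PEN1 was highest in the SCR line, with 57.5 and 55.6 CPM in hyl1 SCR, against 49.4 and 23.4 CPM in Col0 SCR. In WER it had 10.004 and 25.9 CPM in hyl1, against 3.03 and 2.19 CPM in Col0, its lowest group. That contrast was called (log2 fold change 2.78, SE 0.47). In ACR4 it had 11.3 and 15.9 CPM in hyl1, against 9.66 and 10.1 CPM in Col0. In SCR, ACR4 and WER hyl1 was higher without overlap, and in the other lines the genotypes overlapped. In 35S it had 17.7 and 19.7 CPM in hyl1, against 24.0 and 16.5 CPM in Col0. In SHR it had 16.4 and 14.5 CPM in hyl1, against 23.0 and 15.04 CPM in Col0, and in CO2 16.5 and 21.9 CPM in hyl1, against 21.2 and 12.6 CPM in Col0. The mean log2 fold change was 0.61 (SE 0.18), with WER at 2.78 and the other 5 lines at −0.30 to 0.63. The endodermis markers, which also mark the SCR line, were higher as a sum in hyl1 WER, though not each of them. They summed to 123 to 252 CPM there, against 42.1 to 42.6 CPM in Col0 WER. Their part in the higher PEN1 there was not tested.

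BARS1 was scarce in all lines but WER. It had 24.2 and 42.6 CPM in hyl1 WER, against 17.0 and 5.48 CPM in Col0 WER. In ACR4 it had 0.695 and 1.12 CPM in hyl1, against 3.30 and 2.08 CPM in Col0, and in SCR 0.152 and 0.433 CPM in hyl1, against 1.33 and 0.773 CPM in Col0. hyl1 was thus higher in WER and lower in ACR4 and SCR, without overlap. In 35S it had 2.84 and 1.30 CPM in hyl1, against 0.942 and 0.704 CPM in Col0, again higher without overlap. The genotypes overlapped in SHR and CO2. In SHR it had 2.73 and 2.84 CPM in hyl1, against 3.38 and 1.56 CPM in Col0, and in CO2 1.74 and 9.26 CPM in hyl1, against 6.34 and 2.196 CPM in Col0. The counts behind the hyl1 SCR values were 1 and 3, and no line was called. The mean log2 fold change was 0.02 (SE 0.62), the widest error of the 10 genes.

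Of the 6 cluster genes beside these members, CYP702A3 (AT4G15310) fell under the filter and 5 were tested. CYP705A1 was higher in hyl1 as the mean of the lines (log2 fold change 1.02, SE 0.28, adjusted p = 0.0159). It had 8.48 and 6.83 CPM in hyl1 WER, against 0.433 and 0.422 CPM in Col0 WER, and this contrast passed (4.11, adjusted p = 5.03e-04). In SCR, where it was highest, it had 28.4 and 20.3 CPM in hyl1, against 36.0 and 9.13 CPM in Col0. The hyl1 effect differed between the 6 lines (adjusted p = 0.0334), and without the WER line the mean was 0.41 and did not pass (adjusted p = 0.426). CYP705A2 (AT4G15350) was lower as the mean (−1.85, SE 0.39, adjusted p = 0.00268), with 1.04 and 0.937 CPM in hyl1 ACR4, against 51.7 and 45.1 CPM in Col0 ACR4, and 13.0 and 12.4 CPM in hyl1 WER, against 64.6 and 79.1 CPM in Col0 WER. In the other 4 lines the genotypes overlapped, as in 35S with 10.8 and 8.31 CPM in hyl1 and 10.7 and 9.86 CPM in Col0, and over 35S, SHR and CO2 alone the change did not pass (−0.64, adjusted p = 0.596). CYP702A2 (AT4G15300) was lower as well (−1.60, SE 0.45, adjusted p = 0.0162). It had 3.30 and 2.81 CPM in hyl1 ACR4, against 69.1 and 82.0 CPM in Col0 ACR4, and 23.4 and 0.310 CPM in hyl1 WER, against 66.2 and 90.5 CPM in Col0 WER. Its genotypes overlapped in SCR and SHR. The change did not pass over 35S, SHR and CO2 alone (−0.53, adjusted p = 0.447), nor without Col0 SCR replicate 2 (−1.25, adjusted p = 0.0576) or without Col0 SHR replicate 2 (−1.57, adjusted p = 0.0629). CYP705A3 (AT4G15360) and CYP705A4 (AT4G15380) did not pass as the mean (−0.48, adjusted p = 0.376, and −0.11, adjusted p = 0.752). In Col0 the P450 genes CYP705A2, CYP705A3, CYP705A4 and CYP702A2 were higher in WER than in the other layers, by 1.61 to 4.16, while CYP705A1 was lower there by −3.34 and higher in SCR by 3.74 (adjusted p = 1.62e-05).

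PEN3 (AT5G36150), which makes tirucalladienol, was lower in hyl1 in every line. It had 1.39 and 2.44 CPM in hyl1 ACR4, against 15.4 and 16.0 CPM in Col0 ACR4, and 1.85 and 1.76 CPM in hyl1 WER, against 24.6 and 16.2 CPM in Col0 WER. In 35S it had 0.426 and 0.649 CPM in hyl1, against 3.30 and 2.11 CPM in Col0. The genotypes were apart by a wide margin in these lines. In SHR it had 0.546 and 1.71 CPM in hyl1, against 4.61 and 4.41 CPM in Col0, and in CO2 1.56 and 0.756 CPM in hyl1, against 6.34 and 2.80 CPM in Col0. In SCR it had 0.762 and 0.289 CPM in hyl1, against 1.18 and 8.66 CPM in Col0. No hyl1 library reached a Col0 library of its line in 6 of 6 lines, although the hyl1 values rest on 2 to 17 counts a library. In SCR the gap was narrow, with 5 and 2 counts in hyl1, against 8 counts in Col0 replicate 1 and 56 in Col0 replicate 2. The log2 fold changes ran from −3.49 in WER to −1.95 in CO2, and ACR4 and WER were called.

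The P450 genes next to PEN3 behaved in part alike. CYP716A2 (AT5G36140) was lower in hyl1 as the mean of the lines (log2 fold change −1.07, SE 0.25, adjusted p = 0.00582), in ACR4 (−2.12, adjusted p = 0.0262) and WER (−2.81, adjusted p = 0.00194). Without the WER line the mean was −0.71 and missed the threshold (adjusted p = 0.0640), and over 35S, SHR and CO2 alone it was −0.08 (adjusted p = 0.939). In 35S it was not called, with 8.52 and 12.3 CPM in hyl1, against 6.28 and 6.73 CPM in Col0. AT5G36130 (−1.07, SE 0.46, adjusted p = 0.114) and CYP716A1 (AT5G36110; −0.10, adjusted p = 0.894) did not pass. CCB3 (AT5G36120) fell under the filter. Over the 12 cluster genes outside the 10, 10 were tested, 1 passed as higher, against 7.84% of all genes, and 4 as lower, against 12% of all genes, with a median of −0.77 beside −0.07 over all genes. Without the WER line 3 passed.

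**Figure D4:**
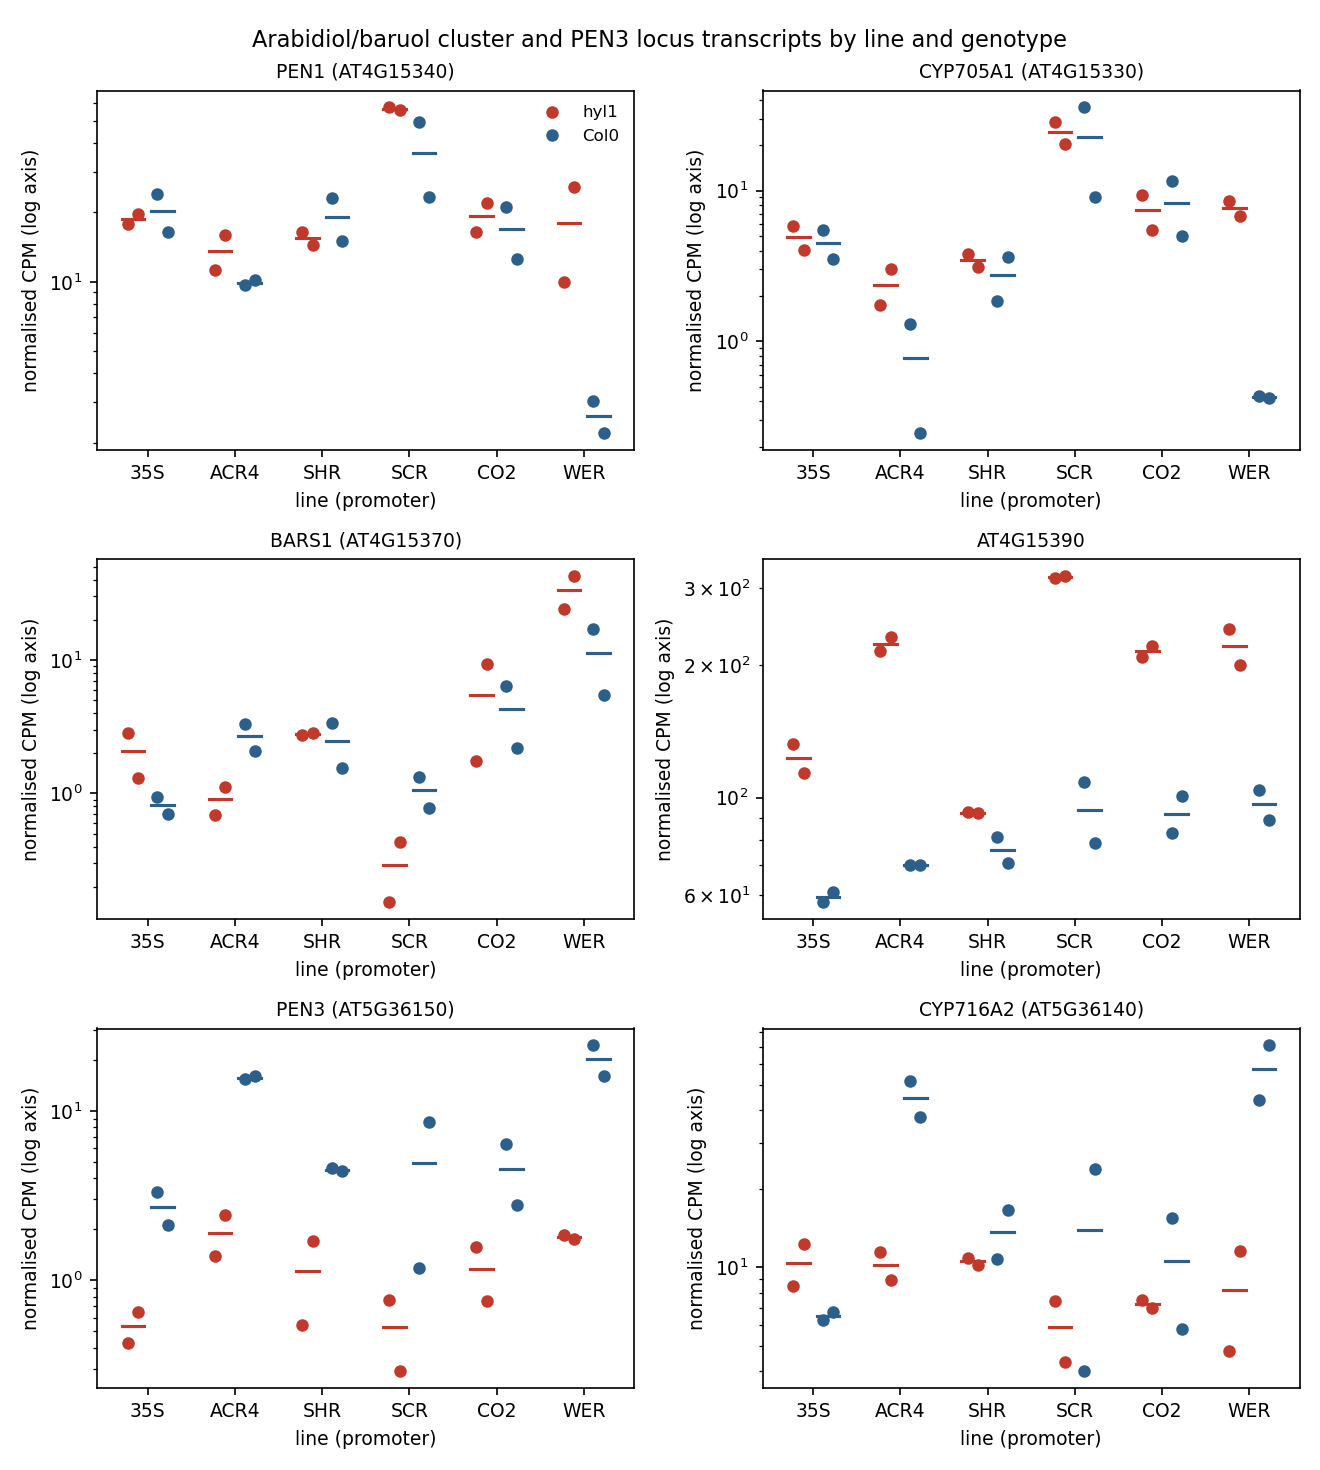
Normalised CPM (log axis) in each library, hyl1 in red and Col0 in blue, with bars at group means, for PEN1, CYP705A1, BARS1 and AT4G15390 of the arabidiol and baruol cluster and for PEN3 and CYP716A2. AT4G15390 is higher and PEN3 lower in hyl1 in all 6 lines, and PEN1 and CYP705A1 are lowest in Col0 WER.

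Genes of 1 cluster followed each other to different degrees over the 12 group means. These correlations describe log2 CPM, and the points share libraries, depth and the layer lines. Among the 4 thalianol genes r was 0.72 to 0.98, and AT5G47950 had r of 0.79 to 0.98 with them. Within the 6 Col0 groups the thalianol pairs had r of 0.85 to 0.995, and within the 6 hyl1 groups 0.32 to 0.96, lowest for CYP708A2 with THAS1. MRN1 and CYP71A16 had r of 0.39. PEN1 had r of 0.89 with CYP705A1 and −0.57 with BARS1, its fellow cyclase gene. PEN3 had r of 0.85 with CYP716A2, and in Col0 alone 0.99, but 0.24 in hyl1. Across clusters, CYP71A16 was closer to THAS1 (0.84) than to MRN1.

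The genes most like each cluster were taken from 15654 genes outside the 10 with a mean log2 CPM of at least 2. Likeness was the correlation with the mean log2 CPM of the cluster's members, not with each member. Nearest to the mean of the thalianol genes were AT3G45710 (r = 0.982 over 12 group means), AT5G40510 (0.972) and XTH19 (AT4G30290; 0.969), a gene of a cell wall enzyme family. Nearest to the mean of the marneral pair was LAS1 (AT3G45130; 0.822), followed by CYP705A12 (0.808) of the same cluster and AT1G77280 (0.802). AT1G62590 (0.903), AT5G12920 (0.892) and AT5G47020 (0.89) came nearest to the mean of the arabidiol and baruol members. Both means joined unlike genes, as r was 0.39 for MRN1 with CYP71A16 and −0.57 for PEN1 with BARS1. AT3G04480 (0.927), AT5G14150 (0.925) and AT3G14540 (0.923) came nearest to PEN3. AT3G45710 had the thalianol pattern at its clearest, with means of 47.7 CPM in hyl1 ACR4, against 265.5 CPM in Col0 ACR4, and 49.3 CPM in hyl1 WER, against 199 CPM in Col0 WER.

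The other oxidosqualene cyclases compete for the same substrate. Of 9 such genes 8 were tested, 2 were higher in hyl1 and 1 was lower as the mean of the lines, beside 7.84% and 12% of all genes, so that the share lower was near that of all genes. LAS1, lanosterol synthase, was higher by 2.596 (SE 0.22, adjusted p = 2.31e-07). It had 42.6 and 45.8 CPM in hyl1 SHR, against 1.23 and 2.85 CPM in Col0 SHR, and 61.2 and 56.7 CPM in hyl1 CO2, against 4.56 and 2.80 CPM in Col0 CO2. In ACR4 it had 46.0 and 55.3 CPM in hyl1, against 23.3 and 12.3 CPM in Col0. In WER, with 20.1 and 58.5 CPM in hyl1, against 16.8 and 22.8 CPM in Col0, it was not called (0.99, adjusted p = 0.105), and the hyl1 effect differed between lines (adjusted p = 0.0129). BAS (AT1G78950), beta-amyrin synthase, was higher by 0.97 (SE 0.21, adjusted p = 0.00301). The change was largest in WER, with 14.1 and 20.5 CPM in hyl1, against 1.62 and 1.69 CPM in Col0. The hyl1 effect again differed between lines (edgeR adjusted p = 0.00444). BAS was most abundant in SCR, with 47.3 and 38.0 CPM in hyl1, against 54.3 and 22.0 CPM in Col0. Endodermis markers were higher as a sum in hyl1 WER, and their part in the higher BAS there was not tested. CAS1 (AT2G07050), cycloartenol synthase, opens the sterol branch and was lower by −0.44 (SE 0.09, adjusted p = 0.00277).

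Many genes that supply oxidosqualene were lower in hyl1 ACR4 and hyl1 WER roots. The 6 root cap markers other than ACR4 (AT3G59420) were lower there too, as a sum. Of 20 genes from acetyl-CoA to oxidosqualene 18 were tested, and 1 was higher and 6 lower in hyl1 as the mean of the lines, beside 7.84% and 12% of all genes. In ACR4 8 were lower, beside 8.42% of all genes, and none higher. In WER 11 were lower, beside 23.3% of all genes, and 1 higher, beside 15.8%, and in the other 4 lines none was called. As the mean, 3 were called without the WER line and none in 35S, SHR and CO2 alone. HMGS (AT4G11820), hydroxymethylglutaryl-CoA synthase, was lower by −0.76 (SE 0.12, adjusted p = 1.79e-04) as the mean and by −2.36 in ACR4. ACAT2 (AT5G48230), the thiolase before it, was lower by −0.74 (SE 0.09, adjusted p = 3.28e-05), FPS2 (AT4G17190), farnesyl diphosphate synthase, by −0.65 (adjusted p = 0.00134) and the isomerase IPP2 (AT3G02780) by −0.29 (adjusted p = 0.00763). The gene that was higher, named after its value was seen, was SQE2 (AT2G22830), a squalene epoxidase, by 0.62 (adjusted p = 0.0411). In Col0, 10 of the 18 were called higher in ACR4 than in the other layers, beside 8.58% of all genes. For WER 8 were called higher, beside 14.9% of all genes, and the 2 medians were 0.77 and 0.51. The part of those markers in these values was not tested. The hyl1 effect differed between the 6 lines for 6 of the 18 genes, beside 17.8% of all genes, among them HMGS (adjusted p = 5.76e-04), ACAT2 (adjusted p = 8.88e-04) and FPS2 (adjusted p = 0.0134), while IPP2 did not pass (adjusted p = 0.0749).

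Of 13 genes of the sterol branch 5 were lower and none higher in hyl1 as the mean of the lines, beside 12% of all genes lower. In ACR4 6 were lower, beside 8.42% of all genes, and in WER 8, beside 23.3%, and none was called in the other 4 lines. The cell type markers differed in ACR4 and WER as well, and their part was not tested. SMT2 (AT1G20330), a sterol methyltransferase, was lower by −0.46 (adjusted p = 3.34e-04), CPI1 (AT5G50375) by −0.64 (adjusted p = 0.00949) and CYP51G1 (AT1G11680) by −0.29 (adjusted p = 0.0228). Of 7 genes of chromatin regulators, among them members of the Polycomb and SWR1 complexes, CLF (AT2G23380) was higher by 0.54 (SE 0.14, adjusted p = 0.0119) and the other 6 did not pass. CLF is a methyltransferase of H3K27.

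**Figure D5:**
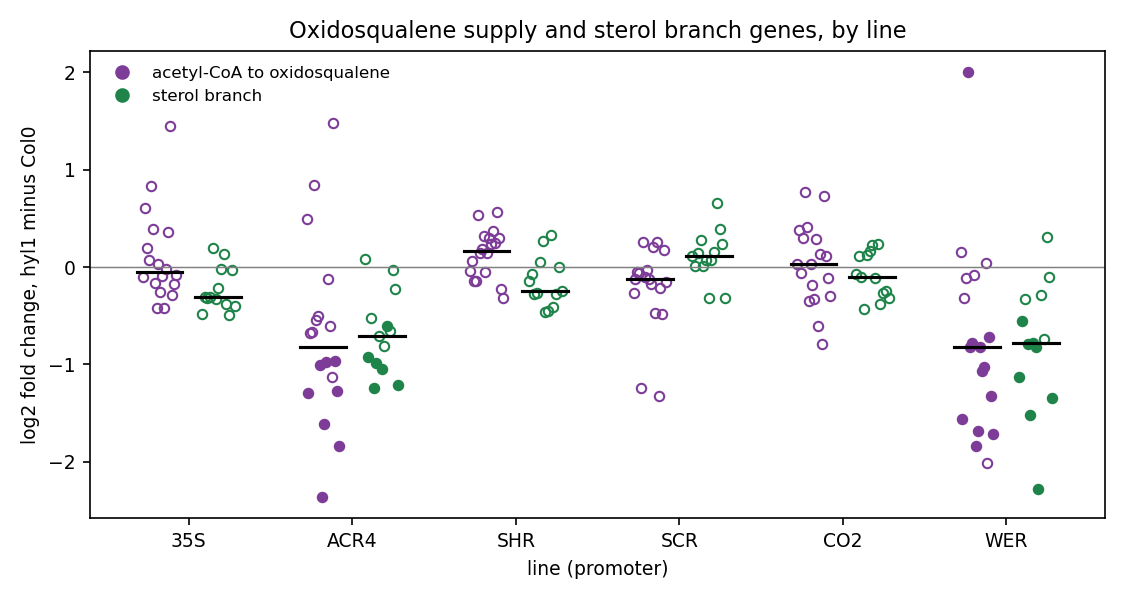
Log2 fold change of hyl1 minus Col0 in each line for 18 genes from acetyl-CoA to oxidosqualene (purple) and 13 genes of the sterol branch (green). Filled points passed the test, open points did not, and bars are medians. The medians lie between −0.31 and 0.17 in 35S, SHR, SCR and CO2, and between −0.82 and −0.70 in ACR4 and WER.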

How the data were processed

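Per the submitters' processing notes, the tools were Bowtie2 2.2.1.0, TopHat2 2.0.11, CASAVA 1.8.2 and featureCounts of Subread, with TAIR10 as the build. The authors deposited raw read counts per gene. Neither the strand setting nor the handling of reads that map to several genes is given there, so values of near-identical copies among the CYP705A, CYP716A and cyclase genes are uncertain. From the counts, edgeR 4.0.16 (R 4.3.3) with TMM scaling gave normalised CPM. Genes passing filterByExpr (minimum count 10, minimum total 15), 23219 of 33602, entered 1 quasi-likelihood fit of 12 groups, with a common dispersion of 0.126. P-values were adjusted by Benjamini-Hochberg over all tested genes, at 0.05. The log2 fold changes carry SE from the F statistic. No p is given for the 10 genes. Calculations were tested on simulated data.

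The members and the gene lists were chosen with earlier results of these data known. Outside the 10, the text names all genes of the clusters, up to 4 genes of each other list with the smallest adjusted p, genes up to 3 places to each side, and the 3 genes most like each cluster. Names and gene order came from the TAIR10.1 annotation, which named 32835 of 33602 identifiers (97.7%). That build is not the one of the counts, so no coordinates, lengths or sequences were used, levels are not compared between genes, and promoter motifs are not analysed here. None of the cluster genes overlaps another gene annotated there. Replicate numbers did not pair the libraries, as same-numbered libraries of a line had deviations correlated at −0.088 to 0.070. Alternatives were DESeq2 1.42.0, RLE scaling, no filter, a replicate block, leaving out single libraries, lines or dominant transcripts, and a fit of 3 lines.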

Additional observations from a re-analysis of the deposited data

Results flagged for a closer look

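The hyl1 effect ran in opposite directions between lines, without overlap of the 2 genotypes, for 4 of the 10 genes, and these differences were not tested. The same held for 49.6% of all genes tested, so such a pattern was common. CYP705A5 was above Col0 in hyl1 35S and below it in ACR4, SHR, CO2 and WER, with 2.64 between the log2 fold changes of the most opposed lines. For THAS1, above in 35S and below in ACR4 and WER, that difference was 1.93. CYP71A16, above in 35S, SHR and CO2 and below in ACR4 and WER, differed by 2.71. BARS1, above in 35S and WER and below in ACR4 and SCR, differed by 3.35, on counts as low as 1 in hyl1 SCR.

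Among genes outside the 10, the edgeR test of a difference between the 6 lines passed for 1 of 10 cluster genes and 2 of 8 other cyclase genes, beside 17.8% of all genes. Of the 55 listed genes tested 11 passed. CYP705A1 had an adjusted p of 0.0334, with a log2 fold change of 4.11 in WER and −0.15 in CO2. LAS1 had an adjusted p of 0.0129, with 4.39 in SHR and 0.99 in WER. BAS had an adjusted p of 0.00444, with 3.37 in WER and −0.74 in SHR.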

How the results depend on the processing

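With DESeq2, RLE scaling, no filter, the replicate block or without the 10 dominant transcripts, 7 or 8 of the 10 genes were called in the mean of the lines, and leaving out each of the 24 libraries in turn gave 7 to 8. The replicate block left 7 called and moved no count of calls by over 1.5 times. Across the 320 recomputed mean log2 fold changes of the 10 genes, 300 kept their sign and 292 lay within 1 SE. PEN1 turned to −0.061 when only the 35S, SHR and CO2 lines were fitted. The cause was not tested.

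Counts of the 10 genes called moved as follows. The share of all genes called was not computed for any alternative, also not for those that leave out single libraries. Whether calls moved for the 10 genes or for all genes is thus not known. Without a filter the 35S line had 0 calls. With DESeq2 the SCR line had 2 and Col0 CO2 against the other layers had 1. Without the WER libraries SCR had 2. With the 35S, SHR and CO2 lines only, 35S had 2, SHR had 1 and CO2 had 3. An alternative chosen after seeing the data, without SCR and WER, gave 2 in 35S, 8 in ACR4, 1 in SHR and 3 in CO2. Cluster genes outside the 10 had 3 calls without WER and 1 in the 3 lines. The oxidosqualene supply genes had 3 and 0. The alternatives that drop lines give no layer contrasts.

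Leaving out single libraries, where the lone library of a group is taken to vary like the others, gave these ranges of calls. For hyl1 against Col0 they were 0 to 1 in 35S, 1 to 6 in ACR4, 1 to 6 in SCR, 0 to 1 in CO2 and 7 to 9 in WER. SHR stayed at 0. For Col0 layers they were 2 to 7 in ACR4, 0 to 5 in SHR, 0 to 7 in SCR, 0 to 4 in CO2 and 2 to 8 in WER. Cluster genes outside the 10 had 4 to 6 calls and supply genes 5 to 9. CYP702A2 missed the threshold without 1 of 2 libraries, at adjusted p up to 0.0629. Low counts limit PEN3 and BARS1, and 2 libraries per group limit every value.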
